A study of Mus musculus with 23 samples.

Results

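The genes described here are the chemokines and their receptors, taken by symbol: every gene named Ccl, Cxcl, Ccr or Cxcr followed by its number, and Cx3cl1. Of the 29894 genes in the 3 tissue tables of the study, 48 met this rule, namely 20 CC ligands, 12 CXC ligands, the CX3C ligand Cx3cl1, 10 CC receptors and 5 CXC receptors. Of these, 40 were listed for muscle, 46 for fat and 36 for hypothalamus, and 32 for all 3. The filter on low counts left 25 for testing in muscle, 36 in fat, 17 in hypothalamus and 11 in every tissue. The 15 members that were not tested in muscle had at most 27 counts in any library, the 10 in fat at most 89 and the 19 in hypothalamus at most 34.

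Chemokines are small secreted proteins that steer leukocytes through tissue by binding receptors coupled to inhibitory G proteins. The inflammatory ligands, such as Ccl2 and Cxcl1, are switched on by cytokines and draw monocytes or neutrophils, while the homeostatic ligands, such as Ccl21a, Cxcl13 and Cxcl12, are made steadily and place lymphocytes and progenitors in their niches. In muscle and fat many of these genes are expressed by endothelium, fibroblasts and resident macrophages, and in brain Cx3cl1 is a neuronal ligand read by microglia through Cx3cr1.

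The libraries came from C57BL/6 mice that received vehicle or 10 mg/kg oxaliplatin, a platinum chemotherapy drug, over 8 weeks, and covered 3 tissues: hypothalamus, white fat from under the skin, and the tibialis anterior, a shin muscle. There were 5 oxaliplatin and 4 vehicle libraries of muscle, 4 and 3 of fat, and 4 and 3 of hypothalamus, 23 in all. Age and sex of the animals were not stated, and nothing states that a mouse number means the same animal in every tissue. The library titled oxaliplatin mouse 5 in muscle carries a vehicle entry for its treatment; it was grouped by its title. Total counts per library were 22.4 to 32.2 M in muscle, 16.5 to 22.7 M in fat and 23.6 to 28.5 M in hypothalamus. The tissue labels matched their markers: summed CPM (counts scaled to the normalised library total) of 5 muscle fibre genes was 111531 to 156716 in muscle, that of 7 adipocyte genes 6201 to 22014 in fat, and that of 4 neuronal genes 1578 to 2408 in hypothalamus. In fat, vehicle mouse 4 also had 118098 CPM of muscle fibre genes, against 13 to 2912 in the other fat libraries.

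Levels were compared between genes as CPM per kilobase of exon. In muscle the highest median belonged to Ccl21a, a ligand of Ccr7 that guides T cells and dendritic cells, with 27.4 over 9 libraries (range 10.5 to 66.0). Next came Ccl11, the eosinophil attractant eotaxin, with 14.9 (11.1 to 19.2), Cxcl12, the ligand of Cxcr4, with 10.4 (8.18 to 13.1), and Cxcl14, a constitutive ligand of epithelium and stroma, with 7.80 (4.42 to 13.1). Neighbours in this order had overlapping ranges and were not separated beyond their spread. Ccl21d at 7.34 and Ccl21b at 4.08 followed; Ccl21a, Ccl21b and Ccl21d are near-identical copies between which reads may be split, so their separate levels are uncertain.

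Fat held a similar set with Ccl6, a macrophage CC ligand, added. Median levels per kilobase were 39.0 for Ccl11, 32.1 for Ccl6, 31.4 for Cxcl12, 28.0 for Cxcl14, 19.7 for Ccl21a and 16.6 for Cxcl13, the B cell attractant that binds Cxcr5. The first 4 of these overlapped in range, but Cxcl14 ran from 0.210 to 33.9, Ccl21a from 0.995 to 109 and Cxcl13 from 0.697 to 108 over the 7 libraries. In hypothalamus Cx3cl1 was highest, with a median of 78.2 and a range of 59.5 to 102 that overlapped no other member. Cxcl14 followed at 29.3 (20.6 to 37.8), Cxcl12 at 18.3 (9.23 to 28.1) and Ccl27a, a ligand of Ccr10, at 4.98 (4.43 to 7.93), and Cxcl14 and Cxcl12 overlapped. Cxcr4 at 1.19 and Ccl17 at 0.880 completed the 6 highest.

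**Figure D1:**
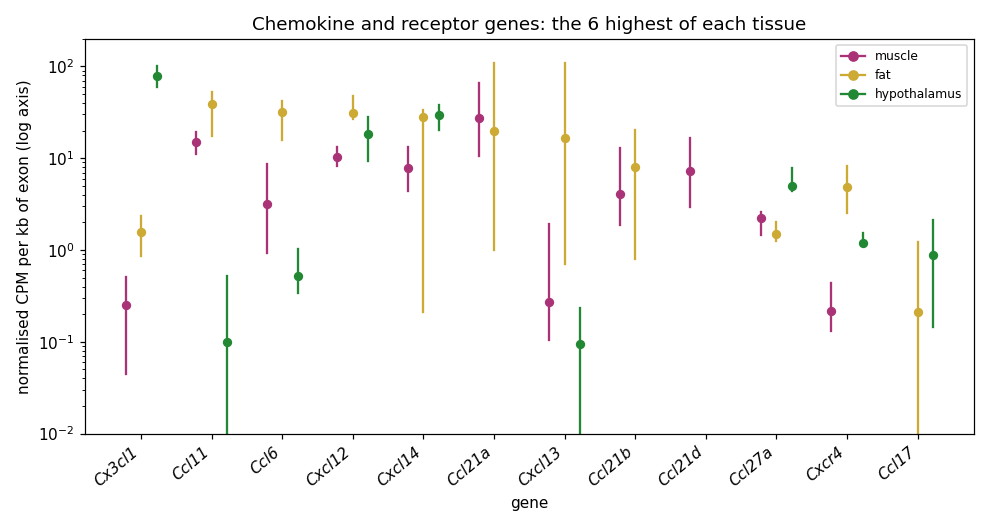
Normalised CPM per kilobase of exon (log axis) of the genes among the 6 highest of any tissue, with the median as a point and the lowest to highest library as a line. A line that reaches the bottom of the axis includes a library at 0. No point means that the gene is not in that table or that its median there is 0. Cx3cl1 stands highest in hypothalamus at 78.2, and Ccl21a in muscle at 27.4 and Ccl11 in fat at 39.0 lead the other tissues.

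Promoter sequences are shown for a ligand called in hypothalamus (Cxcl12), for the 1 gene of the Ccl2, Ccl7 and Ccl12 group with an entry (Ccl12), and for Cxcl10 and Cxcl1, which were chosen after their motif matches had been seen. Each is the 250 bases before the start site from RefSeq on GRCm38.p6, 5′ to 3′ on the gene's own strand. Capitals mark matches to the kB motif, which NF-kB factors bind, or to the TATA motif TATAAA.
Cxcl12 (chr6:117168285-117168534, plus strand): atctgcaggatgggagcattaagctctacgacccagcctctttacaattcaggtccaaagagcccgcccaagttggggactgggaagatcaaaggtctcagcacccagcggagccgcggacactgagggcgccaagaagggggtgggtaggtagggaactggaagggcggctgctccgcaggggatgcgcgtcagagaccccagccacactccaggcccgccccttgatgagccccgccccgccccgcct
Ccl12 (chr11:82101595-82101844, plus strand): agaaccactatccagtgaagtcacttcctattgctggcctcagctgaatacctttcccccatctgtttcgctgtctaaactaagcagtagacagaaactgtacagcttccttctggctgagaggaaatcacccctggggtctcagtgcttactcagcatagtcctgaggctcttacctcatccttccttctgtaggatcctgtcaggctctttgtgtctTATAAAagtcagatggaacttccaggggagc
Cxcl10 (chr5:92348890-92349139, minus strand): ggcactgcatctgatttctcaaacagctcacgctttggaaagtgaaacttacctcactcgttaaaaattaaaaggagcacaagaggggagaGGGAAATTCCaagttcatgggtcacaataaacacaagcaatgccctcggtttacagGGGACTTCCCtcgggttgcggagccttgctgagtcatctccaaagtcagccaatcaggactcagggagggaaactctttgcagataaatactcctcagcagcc
Cxcl1 (chr5:90890995-90891244, plus strand): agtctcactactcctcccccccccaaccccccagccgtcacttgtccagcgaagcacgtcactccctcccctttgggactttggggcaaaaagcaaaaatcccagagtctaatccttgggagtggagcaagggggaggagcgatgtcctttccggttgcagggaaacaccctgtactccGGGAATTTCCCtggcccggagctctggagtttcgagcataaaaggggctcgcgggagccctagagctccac
Ccl12 held the TATA motif with its first base 31 bases before the start site. Cxcl10 held kB matches 159 and 103 bases before it, and Cxcl1 held overlapping kB matches 71 and 70 bases before it. Cxcl12 held none of the 6 motifs searched, and its promoter had 64.4% G and C against a median of 52.0% over all promoters.

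A promoter entry was matched for 34 of the 48 members, and matches were counted on both strands, so that motifs may overlap. The kB motif was in 5 of the 34 (14.7%) against 3.75% of 27025 promoters, AP-1 (TGANTCA) in 4 (11.8%) against 6.87%, ISRE, the interferon-stimulated response element, in 3 (8.82%) against 3.04% and TATAAA in 8 (23.5%) against 13%. A short palindromic form of the glucocorticoid response element (ACANNNTGT) was in 2 (5.88%) against 5.91%, and the hypoxia response core (ACGTG) in 2 (5.88%) against 16.6%. The members with a kB match were Ccl9, Ccr3, Cxcl1, Cxcl2 and Cxcl10. These matches describe letters in a window and are not measured binding sites.

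In muscle, Ccl2, the main attractant of monocytes, rose with oxaliplatin and was the 1 member called. The oxaliplatin libraries of mice 1 to 5 had 2.59, 2.22, 2.35, 2.08 and 1.90 CPM of Ccl2, and the vehicle libraries of mice 1 to 4 had 0.451, 0.204, 0.349 and 0.735. Every oxaliplatin library was above every vehicle library. The means were 2.23 ± 0.262 (SD, n = 5) and 0.435 ± 0.224 (SD, n = 4), a 4.97-fold difference (log2 2.31 ± 0.33 SE, adjusted p = 0.0211, edgeR quasi-likelihood test). Ccl2 lies on chromosome 11 from 82035571 to 82037453 (GRCm38, plus strand). These are low counts, 5 to 79 per library. In bulk tissue, a change in the number of cells of a type and a change in RNA per cell cannot be told apart.

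Of the 25 members tested in muscle, 1 was called where 0.163% of all 14737 genes were. Their median log2 fold change was 0.04 against -0.01 over all genes tested, with 13 of the 25 above 0 against 47.8% of all genes. At an unadjusted p under 0.05 there were 7, against 9.59% of all genes: 5 were higher (4.8% of all genes) and 2 lower (4.79%). In 3 members the groups did not overlap, against 3.89% of all genes: 2 were higher (2.18%) and 1 lower (1.7%). The called gene was higher, as were 0.115% of all genes, against 0.0475% lower. Among the 21 ligands tested the median was 0.11, and among the 4 receptors it was -0.60.

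Ccl7 and Ccl12, monocyte attractants that share the receptor Ccr2 with Ccl2, lie beside it in an 81.2 kb cluster on chromosome 11 with Ccl8 and Ccl11. Ccl7 had 1.28, 1.59, 1.20, 0.884 and 0.980 CPM in oxaliplatin mice 1 to 5 and 0.451, 0.529, 0.384 and 0.537 in vehicle mice 1 to 4. The groups did not overlap, and the log2 fold change of 1.30 ± 0.30 (SE) had an adjusted p of 0.121 by edgeR. Ccl12 had 0.656, 0.992, 0.700, 0.411 and 0.861 CPM with oxaliplatin and 0.164, 0.204, 0.175 and 0.537 with vehicle. Vehicle mouse 4 lay inside the oxaliplatin range, and the log2 fold change was 1.36 ± 0.44 (adjusted p = 0.314). The same cluster was not uniform: Ccl11 had a log2 fold change of 0.26 ± 0.14 (adjusted p = 0.609), and Ccl8 ranged from 0.284 to 2.20 CPM with oxaliplatin and from 0.123 to 1.67 with vehicle.

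Ccr2, the monocyte receptor for these ligands, did not pass the test. It had 3.74, 1.63, 1.70, 1.42 and 0.683 CPM with oxaliplatin and 1.72, 2.93, 3.11 and 8.85 with vehicle. The groups overlapped, vehicle mouse 4 stood above all other libraries, and the log2 fold change was -1.19 ± 0.52 (adjusted p = 0.496). Ccr1, which binds several CC ligands, ranged from 0.316 to 0.919 CPM with oxaliplatin and from 0.122 to 1.78 with vehicle.

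Cxcl14 was the lower member with groups apart. It had 8.07, 10.9, 14.0, 14.2 and 10.2 CPM with oxaliplatin and 16.7, 24.0, 21.3 and 17.8 with vehicle. The log2 fold change was -0.80 ± 0.18 with an adjusted p of 0.107, so it did not pass. Cxcl12 had 83.0, 92.5, 85.2, 101 and 107 CPM with oxaliplatin against 85.6, 66.9, 68.9 and 78.1 with vehicle. Its groups overlapped through vehicle mouse 1, with a log2 fold change of 0.33 ± 0.12 (adjusted p = 0.403). Cxcr4, the receptor of Cxcl12, stood at 0.238 to 0.750 CPM with oxaliplatin and 0.280 to 0.792 with vehicle (log2 -0.66 ± 0.44, adjusted p = 0.724).

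Cx3cl1, the membrane-bound ligand fractalkine, had 1.48, 0.714, 1.0, 0.979 and 1.99 CPM with oxaliplatin and 0.246, 1.18, 0.175 and 0.509 with vehicle. Vehicle mouse 2 lay inside the oxaliplatin range (log2 1.24 ± 0.51, adjusted p = 0.448). Cxcl9, an interferon-induced ligand of Cxcr3, had a log2 fold change of -0.61 ± 0.35 (adjusted p = 0.639) with overlapping groups. Ccl21a showed a difference in spread: 20.3 to 27.1 CPM over the 5 oxaliplatin libraries against 9.11, 23.9, 39.5 and 57.4 in the vehicle libraries. The log2 fold changes of Ccl21a (-0.51 ± 0.41, adjusted p = 0.804) and its copy Ccl21b (-0.68 ± 0.49, adjusted p = 0.752) did not pass; summed over the copies, a setting chosen after seeing the data, the value was -0.48 (adjusted p = 0.819).

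**Figure D2:**
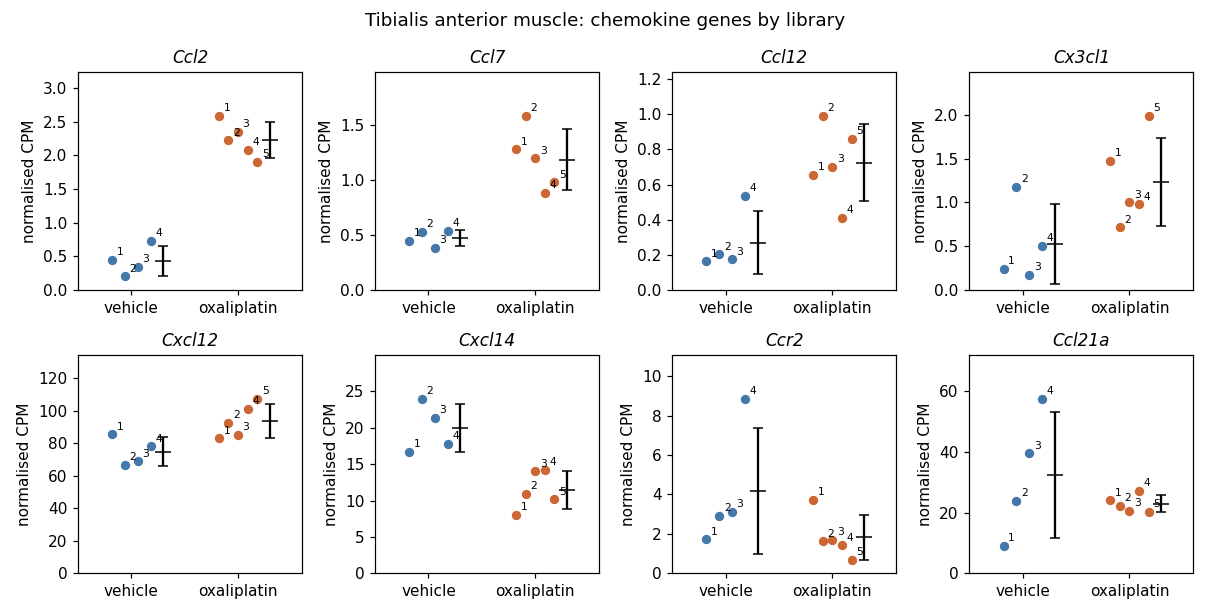
Normalised CPM of 8 genes in each muscle library, vehicle in blue and oxaliplatin in orange, with mouse numbers beside the points and the mean ± SD as bars. Ccl2 and Ccl7 are higher and Cxcl14 lower in every oxaliplatin library than in any vehicle library, and the other 5 genes overlap.

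Marker genes of other cell types were also compared between the muscle groups. Summed CPM of 7 blood endothelial markers was 233 to 257 with oxaliplatin and 155 to 201 with vehicle. Of these 7, 6 had log2 fold changes above 0 and 1 was called, Pecam1 (log2 0.68 ± 0.11, adjusted p = 0.0443, edgeR). The sum of 12 macrophage markers, 48.4 to 77.5 with oxaliplatin, lay within the 23.2 to 118 of vehicle. Neutrophil markers summed to 1.01 to 3.70 with oxaliplatin, but to 100 and 70.2 in vehicle mice 3 and 4 against 1.68 and 0.774 in vehicle mice 1 and 2. B cell markers summed to 0.0594 to 0.250 with oxaliplatin and 1.14 to 5.10 with vehicle, but none passed the filter on low counts, so none was tested. The 7 fibroblast markers summed to 375 to 755 CPM with oxaliplatin and 487 to 1630 with vehicle, with 7 of 7 log2 fold changes below 0, a median of -0.74 and 4 of the 7 lower at an unadjusted p under 0.05. Of 4 monocyte markers 2 were lower at that threshold, and their sum was 10.1 to 33.6 against 4.27 to 62.6, the highest being vehicle mouse 4, which also had the most Ccr2. Of 6 mast cell markers 5 were higher at that threshold, with sums of 15.2 to 26.5 against 4.92 to 17.4. No fibroblast, monocyte or mast cell marker passed after adjustment. The part of these cell types in the results on Ccl2, Ccl7, Ccr2 and Cxcl14 was not tested.

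The Ccl2 call did not survive every choice of libraries. Its adjusted p was 0.0641 without oxaliplatin mouse 1, 0.0578 without mouse 2, 0.0502 without mouse 4 and 0.123 without vehicle mouse 3, while the log2 fold change stayed at 2.10 to 2.72 whichever library was left out. With oxaliplatin mouse 5 counted as vehicle, as its treatment entry has it, the value was 1.63 with an adjusted p of 0.883, and no gene was called; without that library, Ccl2 was called. DESeq2, which called 1.2% of its genes, called Ccl7 (adjusted p = 0.0164) and Cxcl14 (adjusted p = 0.00901) besides Ccl2.

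In hypothalamus, Cxcl12 rose with oxaliplatin and was the 1 member called. Cxcl12 is a homeostatic ligand made by endothelium, perivascular cells and some neurons. It had 149, 230, 220 and 205 CPM in oxaliplatin mice 2 to 5 and 75.5, 81.2 and 86.8 in vehicle mice 1, 2 and 4. The lowest oxaliplatin library was well above the highest vehicle library. The means were 201 ± 36.0 (SD, n = 4) and 81.2 ± 5.67 (SD, n = 3), a 2.48-fold difference (log2 1.31 ± 0.15 SE, adjusted p = 0.0136, edgeR), on 2207 to 5721 counts per library. Cxcl12 lies on chromosome 6 from 117168535 to 117181367 (plus strand).

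Among the 17 members tested in hypothalamus, 1 was called where 0.148% of 18941 genes were, and all 28 of those genes were higher. The median log2 fold change of the members was 0.31 against 0.01 over all genes, with 12 of the 17 above 0 against 52% of all genes. There were 5 members at an unadjusted p under 0.05 against 10.2% of genes: 4 were higher (6.2% of genes) and 1 lower (4%). In 4 members the groups did not overlap, against 9.93% of genes: 3 were higher (5.58%) and 1 lower (4.35%). Cxcr4, which reads Cxcl12, had 2.30, 2.43, 2.04 and 2.76 CPM with oxaliplatin and 2.09, 2.16 and 2.14 with vehicle. Its groups overlapped, with a log2 fold change of 0.16 ± 0.20 (adjusted p = 0.790).

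Ccl17 and Ccl22, neighbours on chromosome 8 that attract Ccr4-bearing T cells, were low. Ccl17 had 1.09, 0.905, 0.692 and 0.453 CPM with oxaliplatin and 0.308, 0.108 and 0.0738 with vehicle. The groups did not overlap, and the log2 fold change of 2.21 ± 0.55 had an adjusted p of 0.274 by edgeR; DESeq2 (adjusted p = 0.0428, 1.04% of genes called) and limma-voom with quality weights (adjusted p = 0.0239, 1.88% of genes called) called it. Ccl22 had 0.322, 1.23, 0.692 and 0.247 CPM with oxaliplatin and 0.410, 0.0720 and 0.111 with vehicle, overlapping through vehicle mouse 1 (log2 1.62 ± 0.73, adjusted p = 0.497).

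Ccl27a and Ccl28 both bind Ccr10. Ccl27a had 11.8, 11.8, 11.5 and 10.5 CPM with oxaliplatin and 18.8, 13.2 and 13.4 with vehicle. The groups did not overlap and the log2 fold change was -0.41 ± 0.15 (adjusted p = 0.408). Ccl28 had 1.53, 2.30, 0.461 and 0.823 CPM against 0.821, 0.468 and 0.332, with overlap (log2 1.23 ± 0.56, adjusted p = 0.497). Ccr10 itself ranged from 1.11 to 1.56 CPM with oxaliplatin and from 1.12 to 1.40 with vehicle. Ccl25, the ligand of Ccr9, had 5.56, 5.76, 4.57 and 4.24 CPM against 4.21, 3.49 and 3.69, just without overlap (log2 0.41 ± 0.18, adjusted p = 0.480).

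Cxcl1, a neutrophil attractant, had 0.564, 0.946, 0.423 and 0 CPM with oxaliplatin and 0, 0.108 and 0.0738 with vehicle, from 0 to 23 counts. Oxaliplatin mouse 5 was at 0, and the log2 fold change of 2.92 ± 1.12 had an adjusted p of 0.451. Cx3cl1 had 400, 234, 307 and 304 CPM with oxaliplatin and 281, 312 and 325 with vehicle, a log2 fold change of 0.02 ± 0.16, and Cxcl14 had -0.09 ± 0.18, both with overlapping groups. The log2 fold change was 0.67 for Ccl9, -0.43 for Cxcl16 and 0.41 for Ccl19. Their groups overlapped too, and none of them was called.

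**Figure D3:**
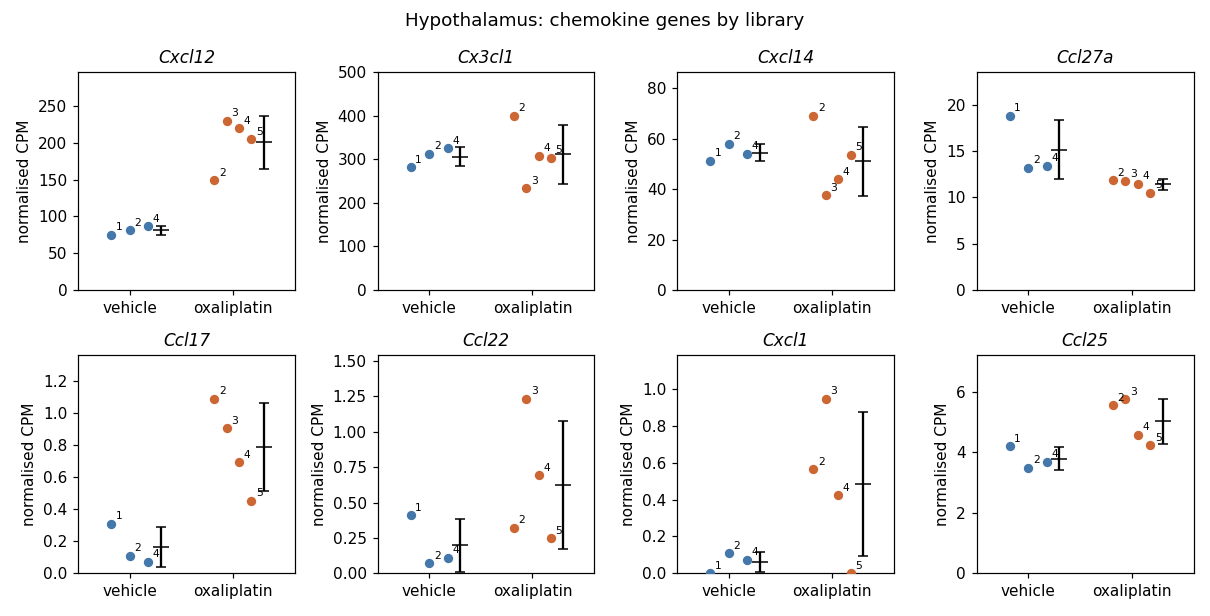
Normalised CPM of 8 genes in each hypothalamus library, vehicle in blue and oxaliplatin in orange, with mouse numbers and the mean ± SD. Cxcl12, Ccl17 and Ccl25 are higher and Ccl27a lower in every oxaliplatin library than in any vehicle library; Ccl25 is apart by the least, at 4.24 against 4.21 CPM.

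Vascular markers also differed between the hypothalamus groups, though not in the same order of libraries as Cxcl12. Summed blood endothelial markers were 450, 517, 433 and 263 CPM in oxaliplatin mice 2 to 5 and 117, 117 and 126 with vehicle, and the sum of 5 pericyte and smooth muscle markers was 173 to 213 against 123 to 148. Of the 7 blood endothelial markers 2 were called, Vwf (log2 2.97) and Pecam1 (1.49). All 7 were above 0, the lowest at 0.02. Of the 5 pericyte and smooth muscle markers 2 were called, Abcc9 (1.22) and Kcnj8 (1.61), with 4 above 0 and 1 below. The called genes had adjusted p from 0.0136 to 0.0212 by edgeR, where 0.148% of all genes were called. Microglial markers summed to 88.6, 91.3, 110 and 139 CPM with oxaliplatin and 135 to 149 with vehicle. The part of these markers in the result on Cxcl12 was not tested.

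The Cxcl12 call was lost (adjusted p in parentheses) without oxaliplatin mouse 3 (0.0605) or 4 (0.115), and without vehicle mouse 1 (0.173), 2 (0.158) or 4 (0.100), with the log2 fold change between 1.23 and 1.43 in each leave-one-out fit. Without oxaliplatin mouse 5, 655 genes were called (3.49%), and Cxcl12 (adjusted p = 0.00803) and Cxcl1 (log2 3.32, adjusted p = 0.0494) were among them.

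In fat no member was called among 36 tested, as 0% of the 19870 genes tested passed by edgeR. At an unadjusted p under 0.05 there were 8 members, against 26.1% of all genes: 7 were higher (13.4% of all genes) and 1 lower (12.7%). In 6 members the groups did not overlap, against 21.5% of all genes: 5 were higher (10.3%) and 1 lower (11.2%). The median log2 fold change was 0.16 over the members and 0.03 over all genes, with 20 of the 36 above 0 against 52.4%. DESeq2, run without the filter on low counts, called 6 members, all higher (Ccr6, Ccr7, Cxcl13, Cxcr2, Cxcr4 and Cxcr6). It called 9.03% of the genes it tested. Cxcr2 was not among the 36 that passed the filter. It had 0.162, 0.275, 0.866 and 5.23 CPM in oxaliplatin mice 2 to 5 and 0.134, 0.173 and 0.165 with vehicle. The limma-voom fit with quality weights called 11 (4 of them higher) where it called 25.5%.

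Ligands and receptors of lymphoid tissue had high values in some oxaliplatin fat libraries. Cxcl13 had 124, 93.8, 102 and 19.1 CPM in oxaliplatin mice 2 to 5 and 0.801, 1.16 and 13.3 in vehicle mice 1, 2 and 4. The groups did not overlap, and the log2 fold change of 4.05 ± 1.15 had an adjusted p of 0.122 by edgeR. Vehicle mouse 4, with 13.3 CPM, is the fat library with 118098 CPM of muscle fibre genes. Without it the log2 fold change was 6.44 (adjusted p = 0.192 by edgeR). In the muscle libraries Cxcl13 had 0.119 to 2.20 CPM with oxaliplatin and 0.122 to 2.21 with vehicle. The part of muscle tissue in the 13.3 CPM was not tested. Cxcr5, the receptor of Cxcl13 and a B cell receptor, had 0.541, 1.54, 2.55 and 12.2 CPM with oxaliplatin and 0.801, 1.04 and 0.991 with vehicle. Mouse 2, which had the most Cxcl13, had the least Cxcr5, and mouse 5 the reverse.

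Ccr7 and its ligands also set oxaliplatin mouse 2 apart. Ccl21a had 0.866, 73.4, 69.5 and 94.9 CPM with oxaliplatin and 12.9, 17.2 and 8.53 with vehicle, so that mouse 2 was below and mice 3 to 5 were above every vehicle library (log2 2.21 ± 1.13, adjusted p = 0.250). Ccl19, the other Ccr7 ligand, had 0.325, 3.35, 3.99 and 8.76 CPM against 1.07, 1.21 and 2.20. Ccr7, carried by naive T cells and mature dendritic cells, had 0.216, 4.17, 4.14 and 7.29 CPM against 0.668, 0.924 and 0.385 (log2 2.57 ± 0.96, adjusted p = 0.159). In all 3 genes mouse 2 was the lowest of the 7 libraries.

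Ccr6, found on B cells and some T cells, had 0, 0.604, 0.962 and 7.70 CPM with oxaliplatin and 0.267, 0.116 and 0.0550 with vehicle (log2 3.96 ± 1.71, adjusted p = 0.194). Ccr4 had 0.216, 0.604, 1.11 and 0.999 CPM against 0.267, 0.116 and 0.110 (log2 2.14 ± 0.68, adjusted p = 0.131). Its ligand Ccl22 had 0.0541, 2.96, 4.09 and 4.29 CPM against 0.734, 1.73 and 0.826. For Ccr6, Ccr4 and Ccl22, mice 3 to 5 were above every vehicle library and mouse 2 was not.

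Lymphocyte markers varied across these libraries. B cell markers summed to 0.379, 20.3, 27.1 and 138 CPM in oxaliplatin mice 2 to 5 and 2.42 to 4.39 with vehicle, and T cell markers to 6.44, 38.7, 40.1 and 82.4 against 7.32 to 12.4. The 5 lymph node markers summed to 14.3, 12.2, 16.5 and 70.8 CPM against 3.27 to 5.78. Subcutaneous fat pads can enclose lymph nodes. The part of these markers in the values of Cxcl13, Ccl21a, Ccr7 and Cxcr5 was not tested.

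A smaller set was higher in every oxaliplatin fat library. Cxcr4 had 8.71, 14.3, 14.1 and 15 CPM against 8.28, 7.97 and 4.57 (log2 0.91 ± 0.28, adjusted p = 0.129). Cxcr6, a receptor of tissue-resident T cells, had 6.06, 5.27, 5.96 and 4.88 CPM against 3.27, 3.93 and 3.47 (log2 0.64 ± 0.18, adjusted p = 0.122). Ccr9 had 7.30, 5.87, 6.01 and 4.88 CPM against 4.47, 3.23 and 3.30 (log2 0.71 ± 0.22, adjusted p = 0.129). Its ligand Ccl25 had 16.1, 15.1, 21.5 and 14.6 CPM against 12.3, 10.8 and 13 (log2 0.48 ± 0.18, adjusted p = 0.153). None passed by edgeR. Ccr9 shares 18.8% of its exon bases with an annotated gene on the other strand, and the strand setting of the counting was not stated. The same limit holds for Cxcl11 (41.7% of exon bases shared) and Cxcl16 (18.3%).

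Cxcl12 had 220, 306, 298 and 392 CPM with oxaliplatin and 219, 232 and 257 with vehicle, so mouse 2 lay at the vehicle level (log2 0.37 ± 0.20, adjusted p = 0.284). Cxcl16, the membrane ligand of Cxcr6, had 1.95, 6.97, 10.2 and 13.1 CPM against 6.27, 9.76 and 4.24. Ccl6 ranged from 52.8 to 67.3 CPM with oxaliplatin and from 28.2 to 74.8 with vehicle (log2 0.24 ± 0.30, adjusted p = 0.612).

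A further set was low in oxaliplatin mice 2 to 4 and near vehicle in mouse 5. Ccr2, the monocyte receptor, had 1.62, 3.18, 4.67 and 31.5 CPM against 16.5, 41.0 and 20.2 with vehicle (log2 -1.34 ± 0.97, adjusted p = 0.391). Among interferon-induced ligands of Cxcr3, Cxcl9 had 2.16, 2.03, 4.91 and 25.5 CPM against 25.5, 23.9 and 16.0, and Cxcl10 had 4.44, 4.78, 7.21 and 21.5 against 16.4, 17.5 and 7.37. Cxcl11, the third of these ligands, had 2.70, 1.70, 7.60 and 15.3 CPM against 14.8, 17.6 and 5.72, so that mouse 4 was above vehicle mouse 4. Cxcl14 had 0.811, 0.384, 6.64 and 51.1 CPM against 52.7, 62.0 and 56.7. In Ccr2, Cxcl9, Cxcl10 and Cxcl14 mice 2 to 4 were below every vehicle library and mouse 5 was the highest of its group. For Cxcl14 mouse 5, at 51.1, was also below every vehicle library. Cxcl14 was thus the 1 lower member with groups apart in fat (log2 -1.96), and it did not pass by edgeR. Cxcl9, Cxcl10, Cxcl11 and Ccr2 were singled out after their values had been seen. Fibroblast markers summed to 640, 1076, 914 and 9383 CPM in oxaliplatin mice 2 to 5 and 5134 to 6935 with vehicle, and erythroid markers to 130, 204, 362 and 948 against 446 to 618. In both sums mice 2 to 4 were below every vehicle library and mouse 5 above. The sum of 4 monocyte markers did not have this pattern, at 154, 154, 175 and 255 CPM against 95.3, 206 and 173. Of these 4 markers 3 had log2 fold changes above 0 and 1 below, and 9 of 9 T cell markers were above 0. The part of these markers in the values of Ccr2, Cxcl9, Cxcl10 and Cxcl14 was not tested.

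Ccl11 had 18.9, 31.6, 28.3 and 45.2 CPM with oxaliplatin and 42.2, 56.7 and 50.2 with vehicle, overlapping through mouse 5 (log2 -0.68 ± 0.27, adjusted p = 0.175). Ccl24, a second eotaxin, had 1.57, 2.91, 5.48 and 7.11 CPM against 5.67, 12.9 and 7.98 (log2 -1.05 ± 0.52, adjusted p = 0.237). Ccl2 and Ccl7 lay at 0.595 to 6.01 and 0.595 to 2.76 CPM with oxaliplatin, against 3.63 to 7.62 and 2.20 to 3.07 with vehicle.

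Without oxaliplatin mouse 5, 4969 genes passed by edgeR in fat (25.5% of 19472), and 8 of 32 members tested were among them. These included Ccr9 (log2 0.80) and Cxcr6 (0.69), which were higher, and Ccr2 (-3.03), Cxcl9 (-2.84), Cxcl14 (-4.43), Cxcl10 (-1.33) and Ccl11 (-0.92), which were lower, with adjusted p from 0.00377 to 0.0416. The share of members called, 8 of 32, was close to that of all genes in that fit. Their median log2 fold change was then -0.12 against 0.01 over all genes. Adipocyte markers summed to 6201 to 14825 CPM with oxaliplatin and 16699 to 22014 with vehicle over all libraries, and 12 macrophage markers to 579 to 996 against 561 to 1060; their part was not tested.

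**Figure D4:**
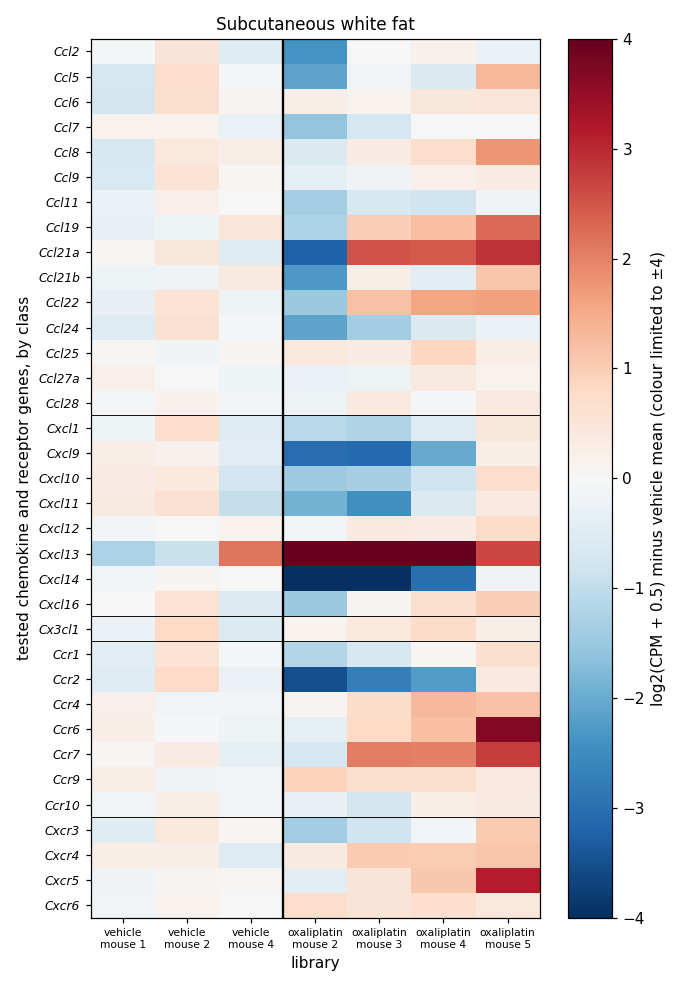
Difference of log2(CPM + 0.5) from the vehicle mean for members tested in fat (rows, by class) in each library (columns), red higher and blue lower, with colour limited to ±4. Ccr2, Cxcl9 and Cxcl14 are blue in oxaliplatin mice 2 to 4 and pale in mouse 5, and Ccl21a and Ccr7 are red in mice 3 to 5 and blue in mouse 2.

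Whether the difference between oxaliplatin and vehicle was itself unequal in a pair of tissues was tested by the interaction of tissue and treatment. No member passed in any pair of tissues by edgeR. Between fat and muscle 0 of 23 members passed where 0.476% of genes did, between fat and hypothalamus 0 of 16 where 0.74% did, and between muscle and hypothalamus 0 of 11 where 0.103% did. At an unadjusted p under 0.05 there were 6, 4 and 3 members, against 18.9%, 21.7% and 9.11% of genes. DESeq2 called 3 (Ccl2, Ccl7 and Cxcr4), 1 (Cxcl12) and 1 (Cxcl12), where it called 4.72%, 7.55% and 1.14% of genes.

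The smallest p between fat and muscle was that of Ccl2, with a log2 fold change of -0.42 in fat and 2.31 in muscle (difference -2.70 ± 0.71, adjusted p = 0.0844). Ccl7 (difference -1.82 ± 0.53, adjusted p = 0.111), Cxcr4 (1.63 ± 0.52, adjusted p = 0.124) and Ccl11 (-0.89 ± 0.29, adjusted p = 0.133) came next. For Cxcl12, with 0.37 in fat, 0.33 in muscle and 1.31 in hypothalamus, fat minus hypothalamus was -0.92 ± 0.26 (adjusted p = 0.0943) and muscle minus hypothalamus -0.96 ± 0.19 (adjusted p = 0.0661). Fat minus hypothalamus was 1.06 ± 0.43 for Ccr9, -3.77 ± 1.54 for Cxcl1 and 0.77 ± 0.34 for Cxcr4, with adjusted p from 0.179 to 0.207. Muscle minus hypothalamus was 1.27 ± 0.50 for Cx3cl1, -0.69 ± 0.28 for Cxcl14 and -2.49 ± 1.45 for Cxcl1, with adjusted p from 0.449 to 0.661. Muscle was sequenced with another library kit than fat and hypothalamus, and kit and tissue cannot be told apart there. Without fat oxaliplatin mouse 5, Ccl2, Ccl7, Ccl11, Cxcl9 and Cxcl14 were called between fat and muscle (12.3% of genes), and between fat and hypothalamus Cxcl12 and Cxcl14 were among those called (19.7% of genes). Cxcl12 was called between muscle and hypothalamus without hypothalamus oxaliplatin mouse 2 (adjusted p = 0.0235, 0.074% of genes) or 5 (adjusted p = 0.0377, 1% of genes).

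**Figure D5:**
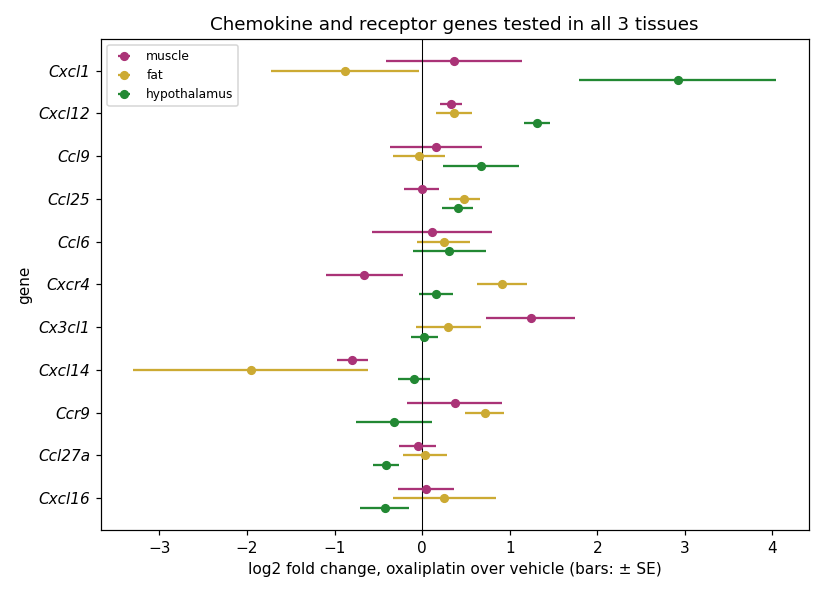
Log2 fold change of oxaliplatin over vehicle ± SE for the 11 members tested in all 3 tissues, by tissue. Cxcl12 is at 1.31 in hypothalamus against 0.33 in muscle and 0.37 in fat. Cxcl14 is at -0.80 in muscle, -1.96 in fat and -0.09 in hypothalamus.

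The genes around the chemokines were followed in 5 lists, set against the 0.163% of all genes that passed in muscle, 0% in fat and 0.148% in hypothalamus; with 0% in fat, a list could have no call there. Among other chemokine system genes, which include atypical and scavenging receptors, 0 of 9 passed in muscle, 0 of 10 in fat and 0 of 10 in hypothalamus. Ackr1, a decoy receptor of venular endothelium that binds many of these ligands, had log2 fold changes of 1.46 in muscle (adjusted p = 0.0617), 0.65 in fat (0.141) and 0.59 in hypothalamus (0.237). Cx3cr1, the receptor of Cx3cl1, was at 25.2 CPM with oxaliplatin and 36.1 with vehicle in hypothalamus (log2 -0.52, adjusted p = 0.461). Of the receptor signalling genes 0 of 15, 0 of 19 and 0 of 18 passed, and of the cytokines that induce chemokines 0 of 2, 0 of 7 and 0 of 7. In the NF-kB pathway 0 of 16, 0 of 17 and 0 of 17 passed. In fat, 17 of its 17 genes had log2 fold changes above 0 with TMM and with DESeq2 size factors, against 52.4% of all genes with TMM. Their median was 0.50 against 0.03, 6 had an unadjusted p under 0.05 and were higher (13.4% of all genes), and in 5 the groups did not overlap and were higher (10.3%). The 17 genes summed to 694 to 778 CPM with oxaliplatin and 477 to 537 with vehicle. Nfkbia, the inhibitor that NF-kB itself induces, had log2 fold changes of 1.51 in fat (adjusted p = 0.114) and 0.97 in hypothalamus (0.252). Of the leukocyte adhesion genes 1 of 15 passed in muscle, 0 of 16 in fat and 0 of 13 in hypothalamus. The 1 was Icam1, the endothelial ligand of leukocyte integrins, at 5.95 to 12.1 CPM with oxaliplatin and 2.16 to 4.24 with vehicle (log2 1.61 ± 0.26, adjusted p = 0.0407).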

How the data were processed

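RNA was sequenced in 23 libraries of 3 tissues. The authors deposited, per tissue, expected counts for each gene and library, unscaled; non-integers made up 45.1% of muscle values, 41.0% of fat values and 48.6% of hypothalamus values. The submitters' processing notes name STAR 2.5.1a, Partek and DESeq2 without roles, and no source here names the build. Gene starts equalled GENCODE M21 (GRCm38) for 99.5% of shared genes, and coordinates are from that annotation. Per the labels' protocols, the library kit was Clontech SMARTer for muscle and RiboErase for the other tissues.

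Expected counts were rounded. Each tissue was fitted alone in edgeR 4.0.16 (R 4.3.3): filterByExpr (minimum count 10, total 15), TMM, robust quasi-likelihood F test, Benjamini-Hochberg over all genes tested, threshold 0.05. SE is the log2 fold change divided by the square root of F. CPM uses TMM-scaled library sizes. Tissue differences used an interaction term. Alternatives were DESeq2 1.42.0 and its size factors, limma 3.58.1 voom with quality weights, other filters, a mouse-number block, each library left out, and muscle oxaliplatin mouse 5 set to vehicle.

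Named genes were all members called, then by p up to 12 per tissue, the 6 highest levels per tissue, the 4 smallest p per tissue pair, and receptors or ligands of these; the last are given as levels only. The values of 1 member are not reported here, though counts of members include it. The members and lists were chosen with earlier results of these data known. Replicates are the separately numbered mice of a group, and p-values weigh the difference between groups against the spread between their libraries. Counting error is smallest for abundant genes.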

Additional observations from a re-analysis of the deposited data

Results flagged for a closer look

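In 8 of 57 groups of values, the highest or lowest library lay apart from the others by Dixon's criterion, where chance flags about 1 in 20 groups. Only groups of at least 4 libraries were examined, which left out the vehicle groups of fat and hypothalamus. Of the 8, 3 (Cxcl9, Cxcl10 and Ccr2 in fat) are in genes singled out after their values had been seen, so the count is not to be read against that rate. In fat, oxaliplatin mouse 5 was the highest of its group by this measure in 5 genes. It had 7.70 CPM of Ccr6 (others 0 to 0.962) and 51.1 of Cxcl14 (0.384 to 6.64). It had 25.5 CPM of Cxcl9 (2.03 to 4.91), 21.5 of Cxcl10 (4.44 to 7.21) and 31.5 of Ccr2 (1.62 to 4.67).

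Oxaliplatin mouse 2 had 8.71 CPM of Cxcr4 in fat (others 14.1 to 15). In muscle, vehicle mouse 4 had 0.537 CPM of Ccl12 (0.164 to 0.204), and oxaliplatin mouse 2 had 20.8 CPM of Ccl11 (16.0 to 17.1).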

How the results depend on the processing

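The number of members called depended on the tool and on single libraries. DESeq2 called 3 in muscle (248 genes in all, against 24 by edgeR), 6 in fat (2377) and 2 in hypothalamus (266), and 3 between fat and muscle, 1 between fat and hypothalamus and 1 between muscle and hypothalamus. limma-voom with quality weights called 11 in fat (5065 genes) and 2 in hypothalamus (357). With muscle oxaliplatin mouse 5 set to vehicle, 0 were called. Leaving out 1 library at a time gave 0 to 1 in muscle (2 to 17 genes in all), 0 to 8 in fat (0 to 4969) and 0 to 3 in hypothalamus (0 to 655), and 0 to 5 (15 to 1732), 0 to 3 (1 to 3194) and 0 to 1 (2 to 135) for the tissue pairs in the order above. DESeq2 size factors and both other filters left the counts of members in the 3 tissues as they were. The causes were not tested.

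With the mouse number as a replicate block, 0 members were called in muscle (Ccl2 log2 2.45, adjusted p = 0.122), where 3 genes (0.0204%) were, and 0 in hypothalamus (Cxcl12 1.11, adjusted p = 0.0860), where 37 genes (0.195%) were, against 28 without it; it changed no count in fat or between tissues. Same-numbered libraries of the 2 arms correlated at -0.276 to 0.202, so the numbers are not taken to pair them. Under the block, Ccl21a in fat reversed to -0.32 and Ccl6 in fat to -0.0079.

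Other sign changes were small. limma-voom gave 0.091 for Ccl21a and 0.22 for Ccl21d in muscle and -0.12 for Cx3cl1 in hypothalamus. Leaving out 1 library gave -0.63 to 0.010 for Ccl21d in muscle, -0.054 to 0.62 for Ccl6 in fat, and -0.12 to 0.13 for Cx3cl1 and -0.27 to 0.017 for Cxcl14 in hypothalamus. The remaining tested members are not described for their tissue or are given there mainly as levels. Among them, 11 of 12 in muscle, 12 of 17 in fat and 2 of 3 in hypothalamus changed sign under some alternative, and none was called under any. Low counts limit Ccl2, Ccl7, Ccl12 and Ccl17, and 3 or 4 libraries per group limit fat and hypothalamus.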
